A study of Mus musculus with 36 samples.

Results

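The genes described here are 49 mouse genes of spermatogenesis and of the sperm cell, among the 49943 genes annotated on the autosomes, X and Y. They were listed by name for meiosis, packing of the sperm chromatin, the acrosome and the flagellum, a rule that uses no measured value. The list was nevertheless chosen with earlier results of these data known. All 49 were found in the annotation, on 18 chromosomes and none on X or Y. The profiles record DNA damage in 24-month-old male C57BL/6J mice that carried no engineered allele and received no treatment in the labels: motile sperm from the tail of the epididymis, and 5 other tissues, namely liver, brain, heart, bone marrow and PBMCs (mononuclear cells of peripheral blood), each from 2 animals. Each DNA sample gave 1 profile for single-strand breaks (SSBs, nicks in 1 strand of the duplex) and 1 for apurinic/apyrimidinic (AP) sites, where a base has been lost from the sugar backbone, 24 libraries in all. Sperm DNA was extracted with another kit than the DNA of the other tissues, so the sperm cell and its extraction cannot be told apart in any comparison below. The labelled tissues cannot be checked with marker genes in DNA profiles.

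In spermatogenesis, germ cells pair and recombine their chromosomes in meiosis, and the haploid spermatids that follow exchange most of their histones for transition proteins and then for protamines, which pack the DNA tightly. The spermatid also builds the acrosome, a vesicle of enzymes for passage through the egg coat, and the flagellum. Most of these genes are transcribed mainly in testis germ cells, and the mature sperm cell is transcriptionally silent. The comparison therefore asks whether genes used in the history of the sperm cell carry another load of lesions there than in other tissues. Use of these genes in the other tissues was not measured, as RNA was not analysed here. Some are not confined to the germ line, such as Odf2, which is also present in centrosomes.

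Each library is a list of single nucleotides with a strand, 225011 to 1041983 for SSBs and 460719 to 963258 for AP sites. The density of a gene is given as LPKM, the number of listed positions over the whole gene (exons and introns, both strands) scaled to the length of the gene in kb and to the total of the library. The genes were unequal in size, from 492 bp for Prm1 to 898261 bp for Spag16, with a median of 19404 bp. Spag16 alone made up 28.6% of their summed length of 3145029 bp, and the 4 longest genes 54.3%. Over all libraries they held 15429 positions, 5873 SSBs and 9556 AP sites, of which the 10 genes with most positions held 68.0%. Per gene the median was 57 SSBs and 77 AP sites over 12 libraries, and 12 genes had under 20 SSBs and 8 had under 20 AP sites. The depth therefore allowed a precise value for the genes as a group and for the long ones, and a coarse one for the protamine and kinase genes.

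The promoters of the protamine and transition protein genes are shown with their lesions because these genes define the sperm chromatin. Protamines 1 and 2 (Prm1, Prm2) and transition proteins 1 and 2 (Tnp1, Tnp2) are the small basic proteins that replace histones. The sequences are the 250 bases before each start from RefSeq on GRCm38.p6, all 4 on the minus strand of the chromosome and written 5′ to 3′ along the gene. Capitals mark the nucleotides listed as an SSB or an AP site on either strand in at least 1 of the 24 libraries.
Prm1, chr16:10796824-10797073: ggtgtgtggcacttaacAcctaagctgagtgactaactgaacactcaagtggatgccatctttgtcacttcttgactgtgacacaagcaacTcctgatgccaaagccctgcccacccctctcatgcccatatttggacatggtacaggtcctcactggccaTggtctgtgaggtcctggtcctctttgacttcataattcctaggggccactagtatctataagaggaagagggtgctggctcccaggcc
Prm2, chr16:10792106-10792355: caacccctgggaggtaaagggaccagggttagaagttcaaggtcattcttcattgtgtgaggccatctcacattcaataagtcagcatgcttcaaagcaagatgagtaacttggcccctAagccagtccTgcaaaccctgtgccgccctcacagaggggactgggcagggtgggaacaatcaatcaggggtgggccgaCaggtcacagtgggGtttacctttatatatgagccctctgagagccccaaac
Tnp1, chr1:73015900-73016149: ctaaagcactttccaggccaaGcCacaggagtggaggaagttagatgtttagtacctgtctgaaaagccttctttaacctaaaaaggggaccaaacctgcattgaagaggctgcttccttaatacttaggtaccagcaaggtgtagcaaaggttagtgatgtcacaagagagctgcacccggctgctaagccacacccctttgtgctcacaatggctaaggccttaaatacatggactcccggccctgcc
Tnp2, chr16:10788656-10788905: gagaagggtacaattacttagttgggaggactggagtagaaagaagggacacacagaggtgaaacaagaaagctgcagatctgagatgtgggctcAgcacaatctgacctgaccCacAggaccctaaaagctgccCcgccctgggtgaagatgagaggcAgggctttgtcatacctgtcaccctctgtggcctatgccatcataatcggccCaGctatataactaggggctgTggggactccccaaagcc

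Few lesions fell in these stretches. The Prm1 promoter held 3 positions, all AP sites, and none came from sperm. The Prm2 promoter held 5 positions, 2 SSBs and 3 AP sites, of which 1 was from sperm. Its T at chr16:10792226, position -121 from the start, was listed as an SSB in bone marrow replicate 1 and again in sperm replicate 2. The Tnp1 promoter held 2 AP sites, 1 of them from sperm, and the Tnp2 promoter 5 SSBs and 3 AP sites, 1 of these 8 from sperm. With 0 to 5 positions per assay and promoter, no difference between tissues was detectable there. Over the 40 genes of the list for which a window of 300 bases around the start was given, every window held at least 1 position and at most 9, in all 71 SSBs and 123 AP sites. The listed nucleotide was a purine in 72.4% of the AP sites of these windows and 46.5% of the SSBs, against 74.8% and 41.3% over the windows of all 27025 genes that had one. Purines make up 50% of the bases of both strands by construction. AP sites thus lay mostly at A and G in the spermatogenesis promoters as in all promoters.

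As a group, the spermatogenesis genes differed in SSB density between sperm and the other tissues by less than the spread between libraries. The pooled SSB density was 0.329 and 0.354 LPKM in the 2 sperm libraries, and the 10 libraries of the other tissues ranged from 0.328 to 0.357 with a median of 0.341. The sperm libraries lay near both ends of that range and overlapped it. The ratio of sperm to the other tissues was 1.0 ± 0.058 (SD from the spread of the libraries, n = 2 and 10). From the 698 positions in sperm and 5175 in the other tissues, the 95% counting interval (Clopper-Pearson) of the ratio ran from 0.926 to 1.09. It covers counting error only. The mean SSB density was higher in sperm in 18 genes and lower in 31.

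The pooled AP density of the group also overlapped between sperm and the other tissues, but this depended on the weight given to each gene. The pooled AP density was 0.333 and 0.352 LPKM in sperm and 0.319 to 0.382 in the other tissues, with a median of 0.339. Both ends of the range of the other tissues came from liver, with 0.382 in replicate 1 and 0.319 in replicate 2, so the spread between animals of 1 tissue covered that between all tissues. The ratio of sperm to the other tissues was 0.989 ± 0.068, and the counting interval from 1697 and 7859 positions ran from 0.936 to 1.04. With each gene weighted equally, the mean AP density was 0.783 and 0.727 LPKM in sperm and 0.452 to 0.727 in the other tissues. Both sperm libraries then lay above all others, replicate 2 by less than the last digit shown, and the ratio was 1.34 ± 0.23. This did not hold for the typical gene. The median over genes was 0.431 LPKM in sperm and 0.415 in the other tissues, a ratio of 1.04 ± 0.22. The mean AP density was higher in sperm in 24 genes and lower in 25.

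**Figure D1:**
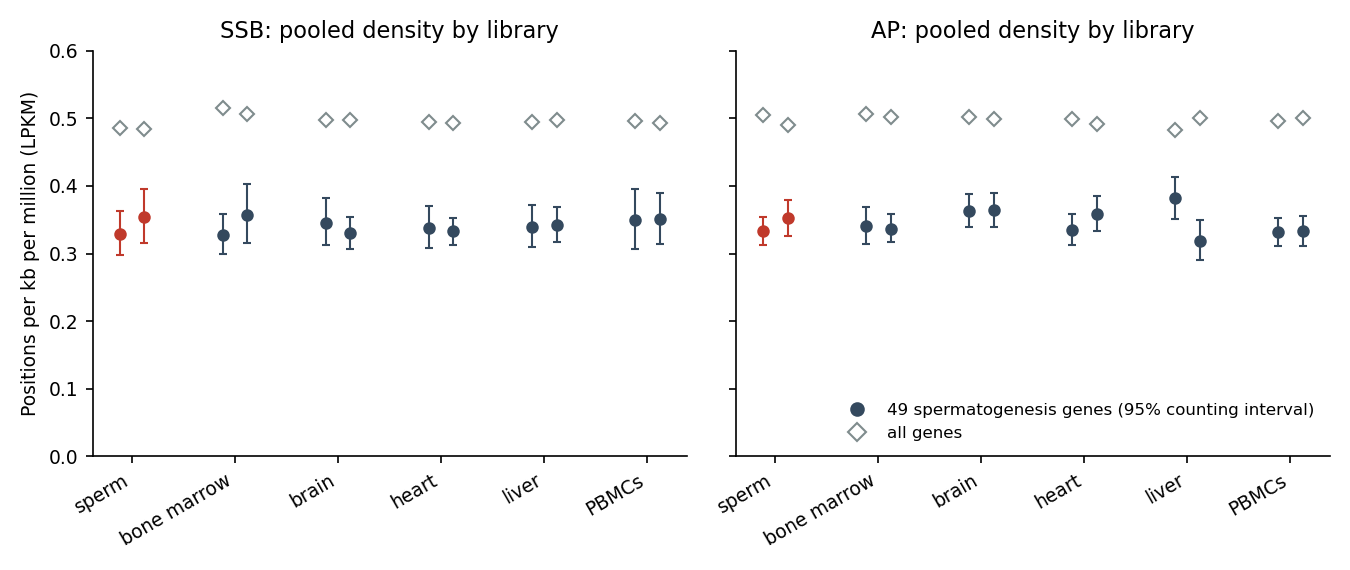
Pooled density (LPKM) of the 49 spermatogenesis genes in each of the 24 libraries, with 95% counting intervals, and of all genes (open diamonds, every position in a gene over summed gene length). Both sperm libraries (red) lie within the range of the other tissues for SSBs and AP sites, and all 24 group values lie below those of all genes.

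With summed positions and lengths, in which long genes weigh most, the group stood below all genes in every library. Its density divided by that of all genes, computed the same way, was 0.678 and 0.731 in the sperm SSB libraries and 0.637 to 0.710 in the others, and it was 0.660 and 0.717 in the sperm AP libraries against 0.637 to 0.791. The mean over 12 libraries was 0.688 ± 0.024 for SSBs and 0.695 ± 0.043 for AP sites (SD, n = 12), and the value was below 1 in 24 of 24 libraries. Sperm replicate 2 was the highest SSB library in this measure and replicate 1 was within the others, and the ratio of sperm to the other tissues was 1.03 ± 0.064. The divisor moved with tissue here, since the SSB density of all genes was 0.486 and 0.484 LPKM in sperm and 0.494 to 0.515 elsewhere. For AP sites the ratio was 0.990 ± 0.087. The 50 kb on each side of the genes were denser than the summed genes in all libraries. The summed genes reached 0.681 of their flanks in sperm and 0.637 in the other tissues for SSBs, and 0.681 in both for AP sites. The flanks weigh each gene equally, whereas long genes weigh most in the sum. At equal weight the order was reversed in the means over 12 libraries. The mean density over genes was 0.595 LPKM in both assays, and the flanks had 0.532 for SSBs and 0.509 for AP sites. The density relative to all genes also moved with the weight of the long genes. With each gene weighted equally, in the list as among all genes, the ratio to all genes was 0.915 for SSBs and 0.916 for AP sites, and for AP sites its value in sperm was 1.33 times that in the other tissues. By medians over genes the list was not below all genes in SSBs: the mean over 12 libraries of the median density was 0.383 LPKM for the list and 0.323 for all genes, and in the sperm libraries 0.358 and 0.262. For AP sites these medians were 0.418 and 0.423. All genes include many short ones, with a median length of 5956 bp against 17169 bp for protein-coding genes. By medians the list was below the protein-coding genes, which had 0.528 LPKM for SSBs and 0.551 for AP sites. In the sperm libraries the protein-coding median for SSBs was 0.471.

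Gene length went with density. Over the 49 genes the Spearman correlation of density with length was -0.742 for SSBs and -0.703 for AP sites, a description across genes that share the same libraries. Among the 40 genes of at least 5 kb it was -0.614 and -0.592. Of these 40 genes, 28 lay below the median SSB density of all genes of that length (0.435 LPKM as the median of the 40, 0.546 for all) and 26 below the median AP density (0.430 and 0.547).

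Densities spread widely over the genes. Among those of at least 5 kb the density over all 12 SSB libraries ran from 0.107 LPKM for Zpbp to 1.05 for Catsper1, 9.77-fold, and the AP density ran from 0.0742 for Sycp1 to 1.20 for Piwil1, 16.2-fold. Both assays ordered the genes alike, with a Spearman correlation of 0.824 over the 40 genes, which share their sequence and the DNA samples. At the low end, Sycp1, a structural protein of the synaptonemal complex, had 80 SSBs and 77 AP sites over 117602 bp, densities of 0.123 and 0.0742. Zpbp, an acrosomal protein that binds the egg coat, had 0.107 and 0.0964 over 184600 bp. Hormad1, which marks unpaired chromosome axes, had 0.135 and 0.105. All 3 lay below the 5th percentile of all genes of at least 5 kb in SSBs and in AP sites (0.154 in both). In AP sites Sycp3 did so as well, which made 4 genes of the list. The part of base composition and of unmappable repeats in these low values was not tested.

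At the high end, Piwil1, a binding protein of small germ cell RNAs, had 1.04 LPKM for SSBs and 1.20 for AP sites, the latter above the 95th percentile of all genes of at least 5 kb (1.05). Catsper1 had 1.05 and 0.837 and the outer dense fibre gene Odf1 1.01 and 0.752. The ratio of SSB to AP density departed most from 1 in Sycp3, also of the synaptonemal complex, with 26 SSBs and 12 AP sites and a ratio of 3.46, and in the other direction in Dazl, an RNA-binding protein of germ cells, with 16 and 54 and a ratio of 0.474. The median ratio was 1.02.

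**Figure D2:**
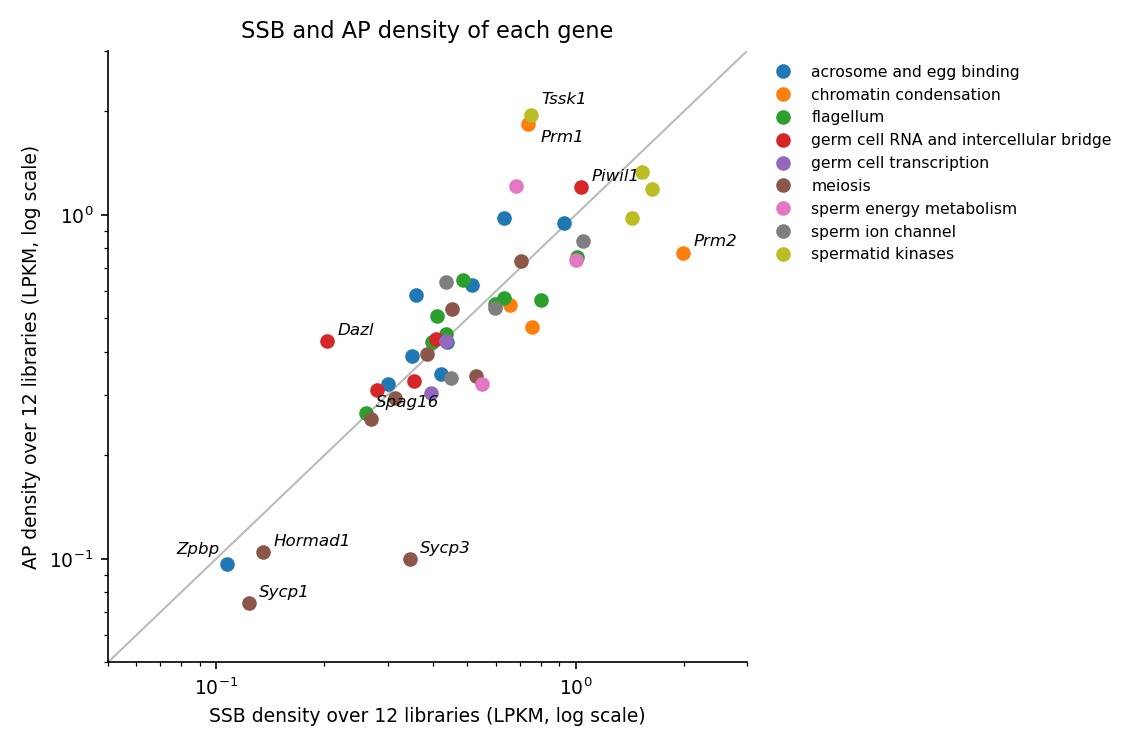
Density of each of the 49 genes over the 12 SSB libraries (x axis) and the 12 AP libraries (y axis), both in LPKM on log scales, coloured by role, with the line of equal density. Zpbp, Hormad1 and Sycp1 lie low in both assays, Sycp3 low in AP sites, and the short protamine and kinase genes, which rest on 2 to 32 positions each per assay, lie at the upper right.

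No gene of the list passed the test of sperm against the other tissues. The test was edgeR's quasi-likelihood test over all genes, with the mean of the 5 other tissues as the reference and Benjamini-Hochberg adjustment over all genes tested, and an adjusted p under 0.05 was called. For SSBs, 0 of the 47 genes tested were called, where 0.0208% of all 38486 genes tested were. For AP sites, 0 of 49 were called, and so were 0% of 41374 genes. Prm1 and Tnp1 were not tested for SSBs, because fewer than 3 of the 12 libraries held a position in them. At an unadjusted p under 0.05 there was 1 gene of 47 for SSBs (5.47% of all genes) and 4 of 49 for AP sites (3.76% of all genes). The SSB gene was higher in sperm, as were 3.08% of all genes, where 2.4% were lower and no gene of the list was. Of the 4 genes in AP sites, 3 were higher and 1 lower, against 2.49% and 1.26% of all genes. DESeq2 and limma on log2(LPKM + 1) also called 0 genes in either assay, with 1 and 0 for SSBs and 0 and 3 for AP sites at an unadjusted p under 0.05. Over all genes those shares were 1.53% with DESeq2 and 7.66% with limma for SSBs, and 0.225% and 4.51% for AP sites. In SSBs the median log2 difference of the genes was -0.16, and in AP sites it was 0.06, against -0.02 and 0.06 over all genes tested. With all SSB libraries thinned to equal depth the SSB median of the genes was 0.06 and that of all genes 0.08. With the AP libraries thinned in the same way the AP median of the genes was -0.03 and that of all genes 0.07. The sign of the median of the genes thus depended on the depth used in both assays.

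Genes with more positions mostly had more precise differences. The standard error was taken as the size of the log2 difference over the square root of edgeR's F statistic. It is therefore approximate, and unreliable for differences near 0. The standard error of the log2 difference had a median of 0.38 over the 14 genes with at least 100 SSBs and 0.29 over the 22 genes with at least 100 AP sites. In genes with under 20 positions the median was 1.48 for SSBs and 1.12 for AP sites, which leaves a difference of several fold undetectable.

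**Figure D3:**
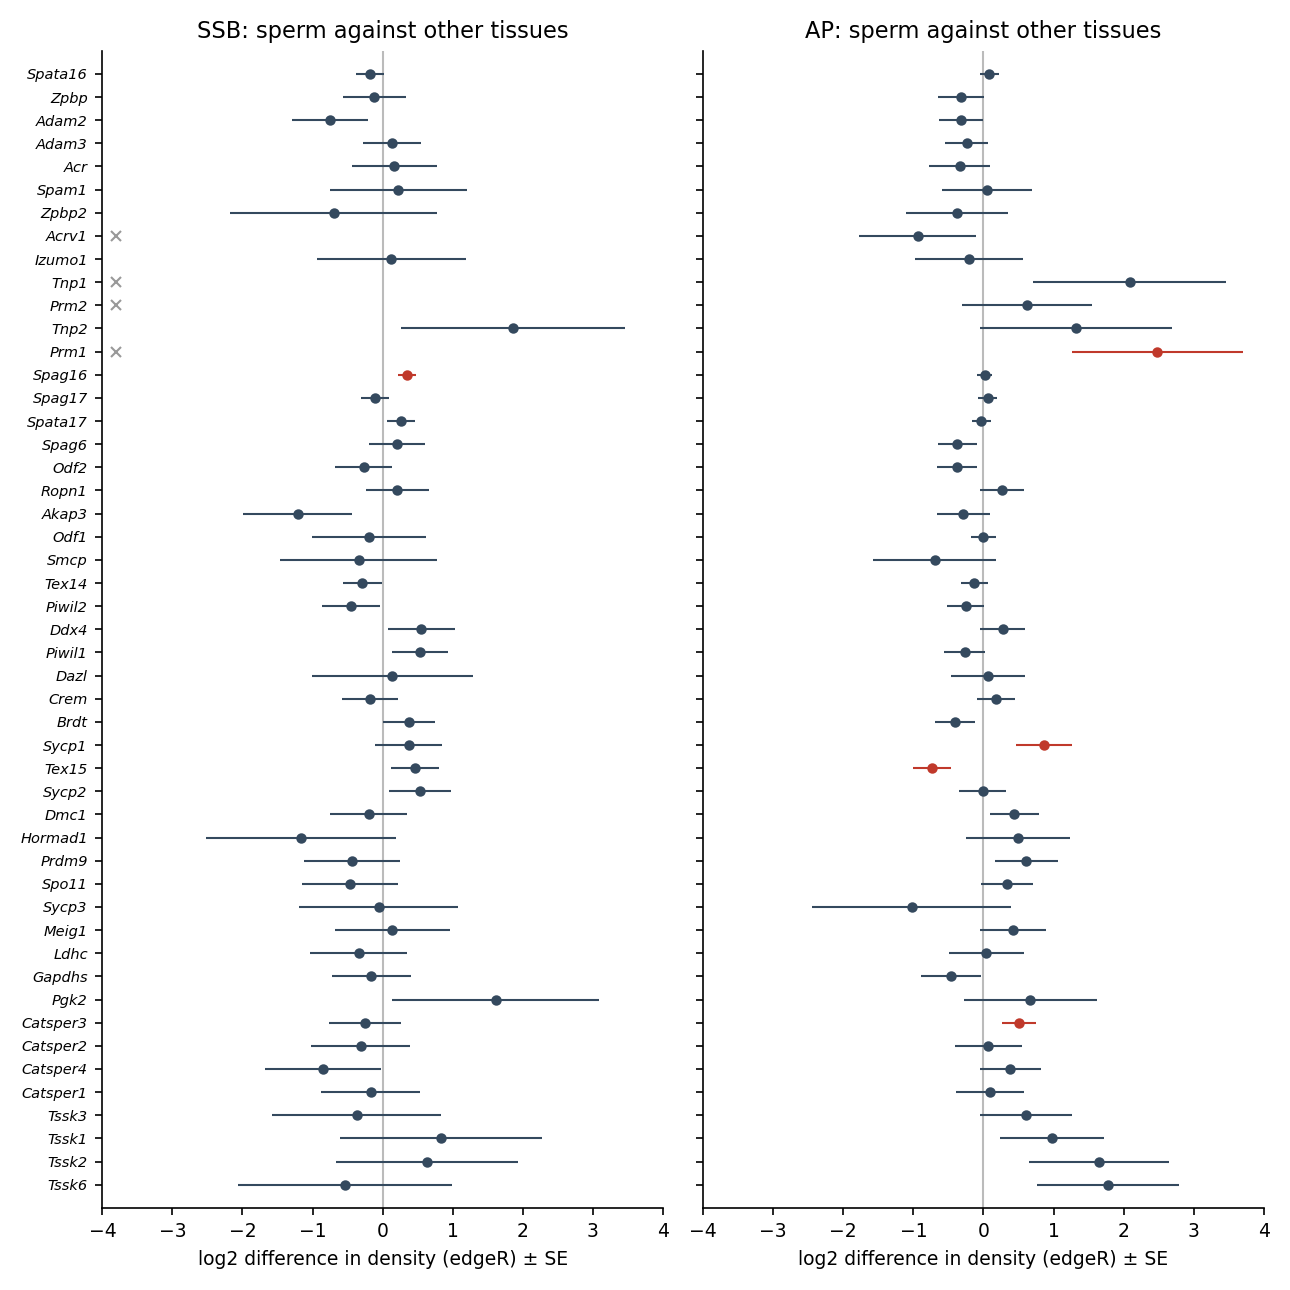
Log2 difference in density between sperm and the mean of the other 5 tissues for each gene, grouped by role. Bars are an approximate standard error derived from edgeR's F statistic (2 sperm libraries and 10 others per assay). Red points have an unadjusted p under 0.05 and none passes the adjusted threshold, and grey crosses at the left mark genes that were not tested or had no position in sperm.

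For chromatin condensation, the 4 genes had 16 SSBs and 20 AP sites in all. Prm1 had 3 AP sites in sperm replicate 1 and 1 in sperm replicate 2, which is 6.33 and 3.27 LPKM. In the other tissues it had 2 in PBMCs replicate 2, 1 in bone marrow replicate 2, 1 in brain replicate 1 and none in the remaining 7 libraries, with a highest value of 4.65 LPKM. Both sperm libraries thus held a position while most others held none, but the values overlapped. The ratio of sperm to the other tissues from 4 and 4 positions was 4.57 with a 95% counting interval from 0.851 to 24.5, and edgeR gave a log2 difference of 2.48 ± 1.22 (unadjusted p = 0.042, adjusted p = 1.0). Its 2 SSBs were both in brain replicate 2.

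Prm2 had 8 SSBs in 6 of the 10 libraries of the other tissues, at 1.32 to 5.81 LPKM where present, and 0 in both sperm libraries. Counts of 0 in sperm allow up to 6.30 LPKM (3 positions over both libraries), above the 2.26 LPKM of the other tissues pooled, so that no difference was detectable. Of its 5 AP sites 1 was in sperm. Tnp1 had 1 SSB in sperm and 2 elsewhere, and 1 AP site in each sperm library and 2 elsewhere. Tnp2 had 1 SSB and 1 AP site in sperm replicate 1 and 2 of each in the other tissues. Prm2, Prm1 and Tnp2 are neighbours, and the stretch from Tnp2 to Prm1, 8889 bp at chr16:10787935-10796823, gave larger numbers: 1.20 and 0.404 LPKM of SSBs in sperm against 0.252 to 1.96 elsewhere, and 1.17 and 1.09 LPKM of AP sites against 0.136 to 1.95. The sperm values lay inside the range of the other tissues in both assays.

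The spermatid kinases of the Tssk family, which phosphorylate proteins in the maturing spermatid, were the only role whose sperm AP densities both lay above all other libraries. Tssk1, Tssk2, Tssk3 and Tssk6 together had 2.41 and 2.10 LPKM of AP sites in sperm, and the other tissues ranged from 0.352 to 2.06 with a median of 1.15. Both sperm libraries lay just above the highest other library. The ratio of sperm to the other tissues was 1.92, from 83 positions in all. For SSBs the same genes had 1.55 and 1.04 LPKM in sperm and 0.557 to 3.48 elsewhere, a ratio of 0.848. Tssk1, the gene of highest mean AP density, had 2.86 and 3.33 LPKM in sperm and 0 to 4.49 elsewhere, so its groups overlapped. In AP sites the log2 differences of the 4 genes were all positive, from 0.61 in Tssk3 to 1.78 ± 1.02 in Tssk6, and none passed the test (lowest adjusted p = 1.0). These genes share sequence with each other, and how reads that fit several places were assigned is not given in the sources used here.

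The 9 shortest genes, those under 3 kb, comprise the 4 chromatin condensation genes, the 4 kinases and Pgk2, a set chosen after the values were seen and not tested. In AP sites they had 2.12 and 2.00 LPKM in sperm against 0.538 to 1.57 in the other tissues, a ratio of 2.03. The ratio depended on the length limit and was 1.10 for the genes under 10 kb.

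**Figure D4:**
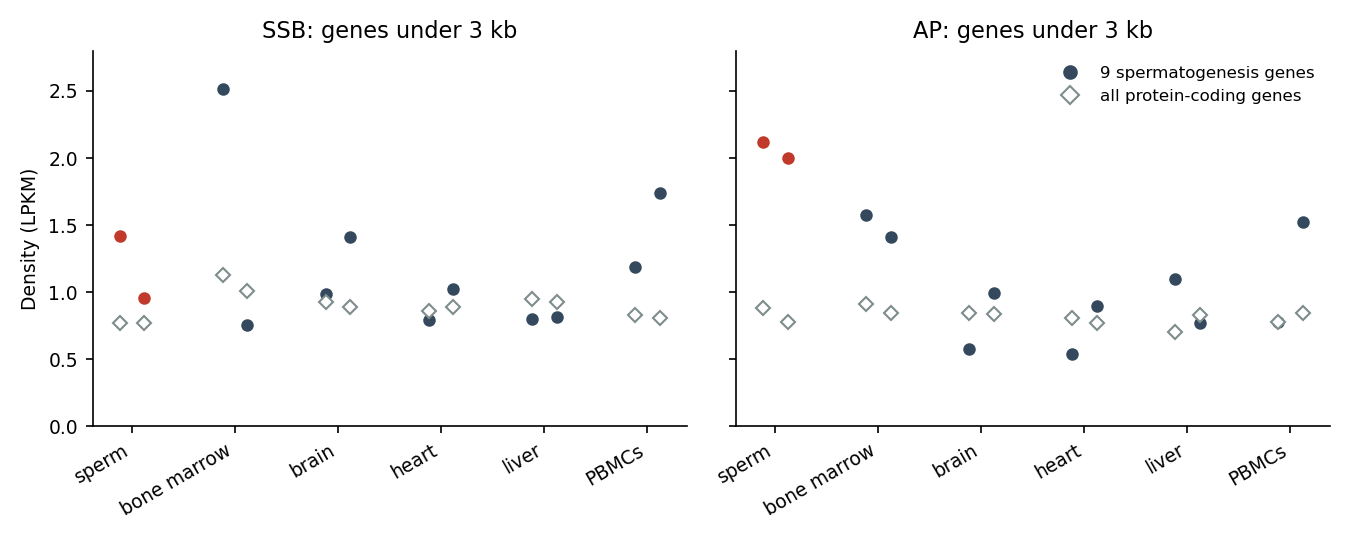
Density (LPKM) of the 9 spermatogenesis genes under 3 kb (filled circles, sperm in red) and of all protein-coding genes under 3 kb (open diamonds) in each library, for SSBs and AP sites. In AP sites both sperm libraries of the 9 genes, at 2.12 and 2.00, lie above the other 10, while the protein-coding genes lie between 0.705 and 0.910 in all 12 AP libraries.

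For the acrosome and egg binding, the 9 genes had sperm replicate 1 below every other library in both assays and replicate 2 within the others. Their pooled SSB density was 0.211 and 0.284 LPKM in sperm against 0.257 to 0.323, and their AP density was 0.255 and 0.315 against 0.270 to 0.344. The ratio of sperm to the other tissues was 0.875 in SSBs and 0.955 in AP sites. Spata16, needed for acrosome formation and the second richest gene in positions with 1555, had 0.216 and 0.322 LPKM of SSBs in sperm and 0.278 to 0.333 elsewhere. Its log2 difference was -0.19 ± 0.20 in SSBs and 0.09 ± 0.13 in AP sites. Zpbp had 0.0722 and 0.136 LPKM of SSBs in sperm against 0.0607 to 0.169, and 0.0675 and 0.0959 LPKM of AP sites against 0.0608 to 0.136, so it was low in every tissue. Acrv1, an acrosomal vesicle protein, had 0 SSBs in sperm and 16 in the other tissues, but 0 allows up to 0.816 LPKM, above the 0.585 LPKM of the others. Its 31 AP sites included 3 in sperm.

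The sperm ion channel is a calcium channel of the flagellum that drives hyperactive swimming, and its subunits Catsper1 to Catsper4 had log2 differences of opposite sign in SSBs and AP sites, none of which passed the test. Pooled, they had 0.462 and 0.290 LPKM of SSBs in sperm against 0.377 to 0.779, with sperm replicate 2 below all others, and 0.731 and 0.576 LPKM of AP sites against 0.420 to 0.757. The log2 differences were negative for all 4 subunits in SSBs (median -0.28) and positive for all 4 in AP sites (median 0.24). Catsper3 had 0.866 and 0.773 LPKM of AP sites in sperm and 0.368 to 0.941 elsewhere, with a median of 0.607. Both sperm libraries were above that median and within the range, and the log2 difference was 0.51 ± 0.25 (unadjusted p = 0.041, adjusted p = 1.0). For SSBs Catsper3 had 0.472 and 0.181 LPKM in sperm against 0.170 to 0.736, and a log2 difference of -0.26 ± 0.51.

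The flagellum genes hold more sequence than any other role, 1523265 bp, and gave the only role whose sperm SSB densities lay above all others. The 9 genes together had 0.364 and 0.360 LPKM of SSBs in sperm and 0.296 to 0.352 in the other tissues, with a median of 0.337 and a ratio of 1.08. For AP sites they had 0.336 and 0.368 against 0.309 to 0.397, a ratio of 0.984. Most of their length belongs to Spag16, a protein of the central apparatus of the axoneme and the longest gene. Spag16 had 0.288 and 0.340 LPKM of SSBs in sperm, from 97 and 85 positions, and 0.211 to 0.295 in the other tissues with a median of 0.254. Sperm replicate 2 was above every other library and sperm replicate 1 was below the highest of the others. The log2 difference was 0.35 ± 0.13 (unadjusted p = 0.0072, adjusted p = 0.713). In AP sites Spag16 had 0.264 and 0.274 LPKM in sperm against 0.217 to 0.324, a log2 difference of 0.02 ± 0.11.

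The pooled SSB value of all 49 genes moved when Spag16 was left out. Without it, the SSB densities were 0.345 and 0.359 LPKM in sperm and 0.357 to 0.404 elsewhere, and the ratio of sperm to the other tissues was 0.934 ± 0.047 in place of 1.0, with the groups still overlapping. The AP ratio without it was 0.984. The next longest flagellum genes had smaller differences. Spag17, of the same axonemal apparatus, had 0.352 and 0.404 LPKM of SSBs in sperm against 0.339 to 0.515 and a log2 difference of -0.11 ± 0.20. Spata17, a sperm protein with calmodulin-binding motifs, had 0.518 and 0.401 against 0.268 to 0.561 and 0.26 ± 0.21. In AP sites their log2 differences were 0.06 ± 0.14 and -0.03 ± 0.14. Spag6 and Odf2, an outer dense fibre protein that is also present in centrosomes, had log2 differences of 0.20 ± 0.39 and -0.27 ± 0.41 in SSBs, and -0.37 ± 0.28 and -0.38 ± 0.29 in AP sites.

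The meiosis genes include the machinery that makes and repairs programmed breaks. Pooled, the 9 genes had 0.238 and 0.384 LPKM of SSBs in sperm against 0.240 to 0.352, so the sperm libraries lay on both sides of the range of the other tissues. Their AP densities were 0.262 and 0.258 against 0.202 to 0.288. Spo11, the enzyme that cuts DNA to start recombination, had 0.659 and 0.222 LPKM of SSBs in sperm against 0.274 to 1.33. Dmc1, the meiotic strand exchange protein, had 0.244 and 0.329 against 0.194 to 0.524, and Prdm9, which sets the places of recombination, 0.376 and 0.337 against 0 to 0.921. In AP sites the sperm values of Spo11, 0.833 and 0.894 LPKM, lay within 0.212 to 1.07, and those of Dmc1, 0.404 and 0.332, within 0.170 to 0.447. Prdm9 had 0.536 in sperm replicate 1, above all others, and 0.378 in replicate 2, within their range of 0.193 to 0.408.

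Sycp1 and Tex15 had an unadjusted p under 0.05 in AP sites. Sycp1 had 0.132 and 0.0958 LPKM in sperm and 0.0292 to 0.103 elsewhere with a median of 0.0634. Sperm replicate 1 was above all others and replicate 2 was not, and the log2 difference was 0.86 ± 0.40 (unadjusted p = 0.030, adjusted p = 1.0) from 22 and 55 positions. Its SSBs gave 0.37 ± 0.48. Tex15, needed for meiotic break repair and silencing of transposons, had 0.233 and 0.276 LPKM of AP sites in sperm and 0.258 to 0.576 elsewhere with a median of 0.426. Both sperm libraries were near the low end, replicate 1 below all others, and the log2 difference was -0.73 ± 0.27 (unadjusted p = 0.0074, adjusted p = 1.0). In SSBs Tex15 had a difference of the other sign, with 0.387 and 0.615 LPKM in sperm against 0.236 to 0.567 and a log2 difference of 0.46 ± 0.34.

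Whether the sperm difference depended on the kind of lesion was tested in 1 model over all 24 libraries. The model fitted a mean for each assay and tissue and had no term for the DNA sample. The SSB and AP libraries of a sample were therefore treated as independent, and their pairing was not used. No gene of the list was called (0 of 49, and 0% of all 41210 genes tested), and 2 had an unadjusted p under 0.05 where 4.52% of all genes did. These were Tex15, whose SSB difference exceeded its AP difference by 1.21 ± 0.45 on the log2 scale (unadjusted p = 0.0070, adjusted p = 1.0), and Spag16 with 0.34 ± 0.17 (unadjusted p = 0.043, adjusted p = 1.0).

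Pooled by role, the genes for germ cell RNA and the intercellular bridge, and those for germ cell transcription, overlapped between sperm and the other tissues in both assays. The 5 RNA and bridge genes had 0.422 and 0.320 LPKM of SSBs in sperm against 0.324 to 0.517, with replicate 2 just below all others, and 0.401 and 0.340 of AP sites against 0.308 to 0.457. Piwil2, a partner of small germ cell RNAs that silence transposons, was the 1 gene of 47 tested whose sperm SSB libraries both lay below all 10 others, with 0.290 and 0.334 LPKM against 0.343 to 0.724. Over all genes tested 2.15% did so. Its log2 difference was -0.45 ± 0.41 (adjusted p = 0.960). No gene lay above all others in SSBs (1.94% of all genes), and in AP sites none of 49 lay above (1.17% of all genes) or below (0.889%). Tex14, which keeps the bridges between germ cells open, had 0.283 and 0.309 LPKM of SSBs in sperm against 0.259 to 0.477, and 0.337 and 0.256 of AP sites against 0.288 to 0.399. Crem, a transcription factor of spermatids, had 0.299 and 0.352 LPKM of SSBs against 0.124 to 0.627, and 0.334 and 0.338 of AP sites against 0.187 to 0.489. Brdt, a bromodomain protein that reads acetylated histones in spermatids, had log2 differences of 0.38 ± 0.37 and -0.41 ± 0.29.

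The 3 genes of sperm energy metabolism encode glycolytic enzymes of the germ line, Ldhc, Pgk2 and Gapdhs. They had 0.319 and 1.07 LPKM of SSBs in sperm against 0.402 to 1.03, where one sperm library lay below and the other above the whole range, and 0.465 and 0.481 of AP sites against 0.172 to 0.847.

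A second list of 73 other spermatogenesis genes had a pooled SSB ratio of sperm to other tissues of 0.945 ± 0.055 and an AP ratio of 0.999 ± 0.087. With edgeR, 0 of the 73 were called in either assay, and 3 in SSBs (5.47% of all genes) and 2 in AP sites (3.76% of all genes) had an unadjusted p under 0.05. DESeq2 also called 0, with 1 in SSBs (1.53% of all genes) and 0 in AP sites (0.225%) unadjusted. The same held for limma, with 3 (7.66%) and 4 (4.51%) unadjusted, and no gene outside the 49 is named. Their median log2 differences were -0.04 and 0.11.

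The tissue of highest mean density varied from gene to gene. In SSBs it was sperm for 7 of the 49 genes, bone marrow for 11, PBMCs for 11, brain for 7, heart for 7 and liver for 6. In AP sites it was sperm for 10, bone marrow for 10, heart for 8, liver for 8, brain for 7 and PBMCs for 6. These counts include genes with few positions and were not tested.

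The position along the gene was compared at the starts of the 40 genes with a known strand. In both groups of tissues the 5 kb bin that begins at the start was the densest of the profile. It runs past the end of the genes under 3 kb. In this bin the density was 0.625 ± 0.097 LPKM for SSBs in sperm and 0.615 ± 0.069 in the other tissues, and 0.622 ± 0.038 and 0.584 ± 0.061 for AP sites (SD, n = 2 and 10). In the 5 kb stretch that ends 5 kb before the start it was 0.469 and 0.486 for SSBs and 0.409 and 0.460 for AP sites. Within 1 kb of the start on either side the SSB density was 0.933 and 0.628 LPKM in sperm and 0.613 to 1.09 elsewhere, from 42 and 321 positions, so that the groups overlapped. At the starts of all 27025 genes with a strand, sperm had 0.723 and 0.725 against 0.736 to 1.23, below every other library. In AP sites the values at the starts of the spermatogenesis genes were 0.784 and 0.817 in sperm and 0.613 to 1.04 elsewhere. The difference between these genes and all genes was not tested.

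**Figure D5:**
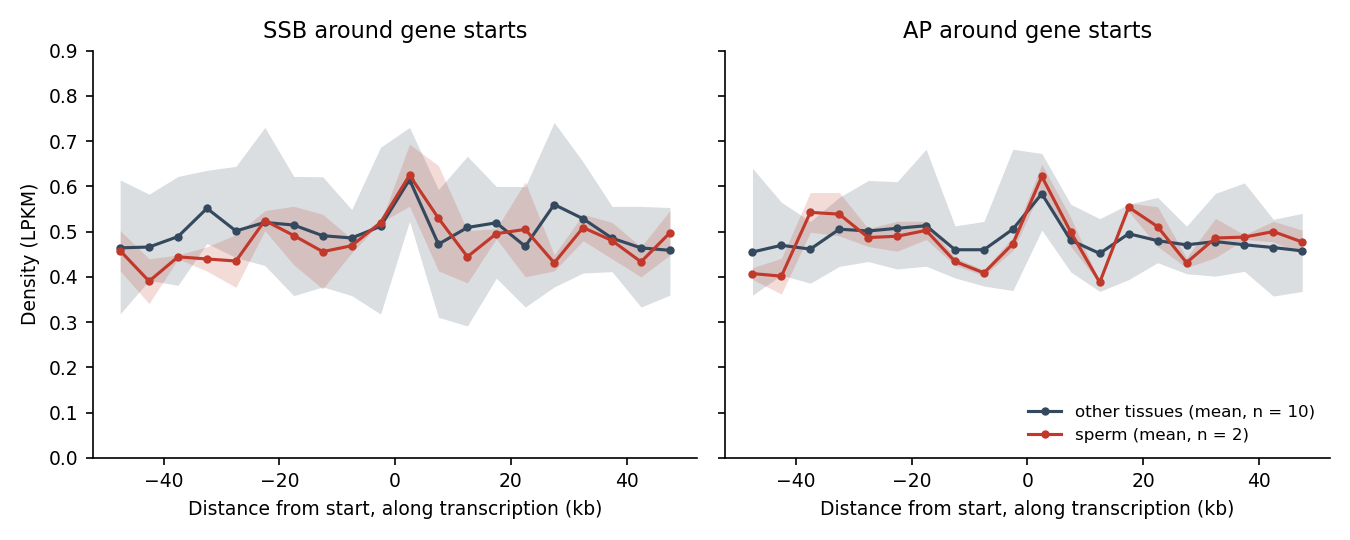
Density of positions (LPKM) in bins of 5 kb from 50 kb before to 50 kb after the start of 40 spermatogenesis genes, oriented along transcription, as the mean of the sperm libraries (n = 2) and of the other tissues (n = 10), with bands from the lowest to the highest library. Both groups peak in the first bin after the start, which runs past the end of the shortest genes, and the sperm band overlaps that of the other tissues there.

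The strand of the lesions and their recurrence at single nucleotides were also compared. The coding strand carried 54.6% ± 3.0 of the SSBs of these genes in sperm and 52.4% ± 2.8 in the other tissues (SD, n = 2 and 10), against 54.7% and 53.4% over all genes with a strand. For AP sites the values were 51.7% ± 1.0 and 51.6% ± 2.8. Of the 5858 distinct nucleotides with an SSB in these genes, 15 (0.256%) were listed in at least 2 of the 12 libraries and 0 in 3, and over all genes 0.527% were in at least 2. Of 9427 with an AP site, 126 (1.34%) were listed in at least 2 libraries, and over all genes 1.48%. The 3 nucleotides listed as AP sites in 3 libraries lay in Spag16, Spata16 and Tssk3, and each of them was listed in 1 sperm library. No lesion position recurred in more than 3 libraries within these genes.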

How the data were processed

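The authors deposited, for each of 24 libraries, a position list in which each lesion is 1 nucleotide with its strand and an unnormalized count, made per library with custom code; the aligner, its filters and the treatment of reads that fit several places are not given in the sources used here. The submitters' processing notes name the builds mm10 and GRCm38. RNA samples were not analysed here. Each position was counted once per gene over its whole RefSeq span (GRCm38.p6), on either strand, and a position in overlapping genes was counted for each; 23 of the 49 genes overlap another gene and none overlaps another of the list. LPKM was positions x 1e+09 over length and library total.

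Sperm was compared with the mean of the 5 other tissues with edgeR 4.0.16 (quasi-likelihood, TMM, 12 libraries per assay, genes with a position in at least 3 libraries, Benjamini-Hochberg, threshold 0.05) in R 4.3.3, with DESeq2 1.42.0 and limma 3.58.1 as alternatives; pooled densities were not tested. Tested on simulated data with 4-fold changes in genes of at least 5 positions on average, edgeR recovered 97 of 100 rises and 36 of 100 falls for SSBs (1 false call) and 99 and 61 for AP sites (7 false calls). The simulation used a fixed spread and no differences among the other tissues. These rates do not describe genes with fewer positions, which include many of the list for SSBs. Tables and figures used Python 3.11.15. The replicates are 2 animals per group, and the p-values measure the spread between these libraries.

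The 49 genes, the list of 73 and the roles were chosen with earlier results of these data known. Genes named are Prm1, Prm2, Tnp1 and Tnp2, the 10 with most positions, those with an unadjusted p under 0.05 and those of highest and lowest mean density; the highest means, of Prm2 (SSBs) and Tssk1 (AP sites), rest on 8 and 25 positions. Others are named as examples of their role, after their values were seen. Alternatives covered scaling, filters, tools, summed counts, equal depth, chromosomes, weights and left-out libraries.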

Additional observations from a re-analysis of the deposited data

How the results depend on the processing

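The count of genes called was 0 under each of the 22 alternatives for SSBs, the 22 for AP sites and the 3 for the difference between the assays, with 0 to 4, 0 to 4 and 1 to 2 genes at an unadjusted p under 0.05. Over all genes, 8 were called in SSBs, and 0 (2 groups only, or without sperm replicate 1) to 27 (genes with positions in at least 80% of libraries) under the alternatives, and in AP sites 0, but 15 with limma. With each library left out in turn the pooled ratio of sperm to other tissues ran from 0.964 to 1.04 for SSBs and 0.962 to 1.02 for AP sites, that relative to all genes from 0.990 to 1.07 and 0.949 to 1.03, and the level relative to all genes from 0.684 to 0.692 and 0.686 to 0.700. The values moved with the weight of the long genes. With each gene weighted equally the pooled SSB ratio was 0.927, the pooled AP ratio 1.34, the AP ratio relative to all genes 1.33, and the levels relative to all genes 0.915 and 0.916. Without the 3 longest genes these levels were 0.771 and 0.762. Without Spag16, a setting added after seeing the data, the SSB ratios were 0.934 and, relative to all genes, 0.962, and the levels 0.751 and 0.757. No other alternative moved a pooled value beyond the spread of the libraries. The log2 differences of Spag16 (SSBs) and of Sycp1, Tex15, Catsper3 and Prm1 (AP sites) kept their sign in every setting, and their adjusted p ran from 0.248 to 1.0.

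With the replicate number as a block (replicate block), 0 genes were called for SSBs, for AP sites and for their difference, and the pooled ratios were 1.0 (SSBs) and 0.990 (AP sites). The labels do not say whether a number is the same mouse in all tissues. The replicate differences of tissue pairs correlated across genes by -0.018 to 0.030 for SSBs and -0.101 to 0.069 for AP sites (15 pairs each). Between the SSB and AP profiles of the same tissue, which share their DNA samples, they correlated by only -0.012 to 0.018 (6 tissues). Known pairs thus also gave values near 0, and the correlations cannot show whether a number is the same mouse. The numbers were not taken as pairs in the main test. With 2 sperm libraries per assay, differences in genes with few positions are below what the depth can show.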

Other observations

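The shortest genes of the list had a higher AP density in sperm than in every library of the other tissues, a set chosen after the values were seen and therefore not tested. The 9 genes under 3 kb are Prm1, Prm2, Tnp1, Tnp2, the kinase genes Tssk1, Tssk2, Tssk3 and Tssk6, and Pgk2, a phosphoglycerate kinase copy without introns. Together they span 11257 bp. They held 23 and 14 AP sites in the sperm libraries, 2.12 and 2.00 LPKM, against 4 to 15 AP sites and 0.538 to 1.57 LPKM in the 10 other libraries. Both sperm libraries lay above all others, and the ratio was 2.03, from 37 positions in sperm and 83 elsewhere. The highest of the others were bone marrow replicate 1 at 1.57 and PBMCs replicate 2 at 1.52. The ratio stayed between 1.93 and 2.16 with each library left out in turn. With the limit set at 10 kb in place of 3 kb it was 1.10.

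In SSBs the same 9 genes had 1.42 and 0.956 LPKM in sperm and 0.753 to 2.52 elsewhere, a ratio of 0.989 from 9 and 65 positions. Among all 3399 protein-coding genes under 3 kb the AP ratio was 1.01, and among the 8 genes under 3 kb of the second spermatogenesis list it was 0.873, with 21 and 122 AP sites. The Tssk genes and Pgk2 have related copies in the genome, and how reads that fit several places were assigned is not given in the sources used here, so their values are uncertain. With each of the 49 genes weighted equally, the AP ratio of the whole list was 1.34, and by the median over genes it was 1.04.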
